A study of Sus scrofa with 4 samples.

Results

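The glucocorticoid receptor, the enzyme that regenerates its ligand, 7 genes known to respond to the receptor and the long noncoding RNA (lncRNA) beside ZBTB16 were followed through the adipogenic differentiation of pig subcutaneous preadipocytes. These 10 genes were taken by name from the deposited expression values: NR3C1, HSD11B1, FKBP5, TSC22D3, PER1, ZBTB16, LOC106504875, SGK1, DUSP1 and GLUL. They were 10 of 22944 genes listed with FPKM, the fragments of a gene scaled by its length and by the library total, which lets levels be compared between genes.

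Cells were isolated from the subcutaneous fat of 3 male Erhualian piglets aged 5 days, and nothing in the sources used here describes a genetic modification. The D0 library holds confluent cells before induction. A cocktail of 1 µmol/L dexamethasone, 0.5 mmol/L IBMX and 5 µg/mL insulin was then given for 2 days, and the D2 library holds cells at its end. The D4 library follows 2 further days with insulin alone, and the D8 library follows 4 days of insulin in all and then plain growth medium, so that dexamethasone had been withdrawn for 2 days at D4 and for 6 days at D8. For each stage, equal amounts of RNA from the 3 piglets had been pooled into 1 strand-specific library of rRNA-depleted RNA. There were therefore no replicates, no p-value compares the stages, and stage and library cannot be told apart. The 3 agents of the cocktail were given together, so their shares in a difference between D0 and D2 cannot be told apart either. All 95% intervals given here were computed from read numbers and cover counting error only.

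Library totals, computed back from the FPKM values, were 75387428, 54987801, 74358922 and 54128151 fragments at D0, D2, D4 and D8. They are the totals behind the FPKM values and not the sequencing depth. Of these fragments, 1 signal recognition particle RNA gene, LOC102723301, took between 12.4% and 17.1%. Markers of the labelled cell type were present in every library. Among 6 of 7 fibroblast and preadipocyte markers measured, 5 reached FPKM 1 at each stage, and the summed FPKM of the 7 adipocyte markers was 119, 457, 1664 and 2040 at D0, D2, D4 and D8. From D4 to D8 the single adipocyte markers differed in direction. FABP4 went from 853 to 1557 FPKM and CIDEC from 5.01 to 54.6. ADIPOQ, PLIN1, CEBPA and LPL were at 179, 215, 162 and 250 FPKM at D4 and lower at D8, at 158, 90.3, 37.1 and 142. The leptin gene LEP stayed between 0.0269 and 0.314 FPKM, and was higher at D8 than at D4. Among defining markers of other cell types, skeletal muscle summed to at most 0.0269 FPKM, macrophages and leukocytes to between 0.397 and 1.27, epithelium to between 0.678 and 1.47, and endothelium to between 1.16 and 2.59. The exception was the smooth muscle list, with 4 of 5 genes at FPKM 1 or more in every library and a sum of 6205, 664, 509 and 4810 at D0, D2, D4 and D8. ACTA2 and TAGLN were its largest values at each stage, whereas MYH11 stayed between 0.289 and 0.633 FPKM. Which cells these values came from was not tested. The sum was highest at D0, where most of the genes described here were lowest, and its part in the results was not tested. In RNA from whole cultures, fewer cells of a type and less RNA per cell cannot be told apart.

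Glucocorticoids enter cells freely and bind the receptor NR3C1, which is held ready in the cytoplasm by chaperones, moves to the nucleus once it has bound hormone, and activates or represses genes there. Dexamethasone is a synthetic glucocorticoid and a standard part of cocktails that start fat cell differentiation. IBMX raises cAMP by blocking phosphodiesterases, and some genes induced by glucocorticoids, among them PER1, DUSP1 and SGK1, are also known to respond to cAMP or to insulin. Signalling is limited by feedback, since the receptor induces proteins such as FKBP5 that lower its own sensitivity. It also induces proteins such as TSC22D3 and DUSP1 that lower the inflammatory pathways it opposes.

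The receptor itself differed little between the stages, while the gene of the enzyme that supplies its natural ligand was about 4 times as high at D2 as at D0. NR3C1 (Sscrofa11.1 chromosome 2, 144822937 to 144956451, minus strand) was at 6.21, 8.42, 9.75 and 6.32 FPKM at D0, D2, D4 and D8, from 2864 to 6071 reads a library. It was thus highest at D4, by 1.57-fold over D0 (95% interval 1.51 to 1.63). At D8 it stood beside D0, with a log2 ratio of 0.03 (95% interval -0.04 to 0.10), and these 2 neighbours in the order of its levels did not differ beyond counting error. Scaling by RPLP0, PPIA and HPRT1 turned this last ratio to -0.05. In no comparison did the receptor reach a 2-fold difference.

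HSD11B1 (chromosome 9, 133231451 to 133278396, minus strand), which turns inactive cortisone into cortisol inside the cell, was listed at 1.01, 4.22, 3.58 and 2.97 FPKM at D0, D2, D4 and D8. Those values rest on 139, 425, 488 and 294 reads. The D2 library was 4.19-fold above D0 (95% interval 3.45 to 5.11), and the level was 2.95-fold above D0 (95% interval 2.40 to 3.63) at D8, 6 days after dexamethasone. Each step down after D2 was small, with log2 ratios of -0.24 (95% interval -0.43 to -0.05) in D4 vs D2 and -0.27 (95% interval -0.49 to -0.06) in D8 vs D4. A gene on the opposite strand, C9H1orf74, overlaps HSD11B1 and was at 4.42, 6.38, 4.68 and 3.39 FPKM. Its order of stages was not that of HSD11B1, since D8 was its lowest library. The strand setting of the authors' counting is not given in the sources used here, so reads of this pair may not be fully separated.

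**Figure D1:**
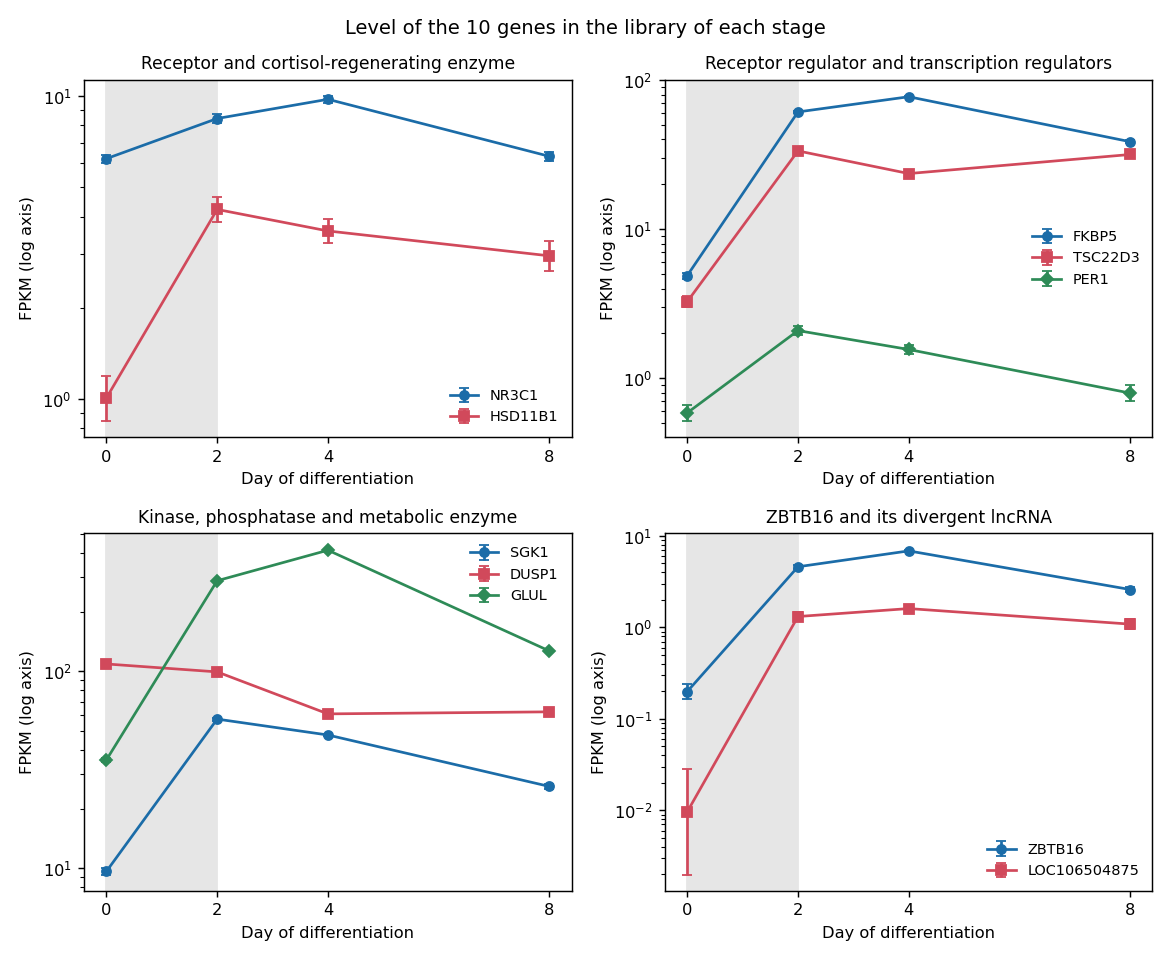
FPKM on a log axis against day of differentiation for the 10 genes, with 1 point for the single pooled library of each stage, bars for the 95% counting interval and the days with dexamethasone shaded. From D0 to D2 most lines climb steeply, while NR3C1 stays between 6.21 and 9.75 FPKM and DUSP1 goes from 109 FPKM at D0 to 62.3 at D8.

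FKBP5, a feedback regulator, and TSC22D3 were more than 10-fold higher at D2 than at D0. Both stayed high after the cocktail had been removed, but with different courses. FKBP5 (chromosome 7, 31441764 to 31550704, minus strand) encodes a cochaperone that lowers the affinity of the receptor for hormone. Its level was 4.88, 61.2, 77.4 and 38.6 FPKM in the order D0, D2, D4 and D8. The D2 library was 12.5-fold above D0 (95% interval 11.9 to 13.2), which ranked 39 from the top among the mRNAs and lncRNAs that passed the filter given further on. From D2 to D4 the level was another 1.26-fold higher (95% interval 1.24 to 1.29), after 2 days without dexamethasone. From D4 to D8 it was lower by a log2 ratio of -1.003 (95% interval -1.04 to -0.97), and 6 days after withdrawal it was still 7.91-fold above D0 (95% interval 7.52 to 8.32). A lncRNA on the opposite strand inside the gene, LOC110261510, was at no more than 0.354 FPKM in any library.

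TSC22D3, the glucocorticoid-induced leucine zipper that damps inflammatory signalling (chromosome X, 88171325 to 88233583, minus strand), was at 3.26, 33.5, 23.6 and 31.7 FPKM at D0, D2, D4 and D8. Its D2 level was 10.3-fold that of D0 (95% interval 9.39 to 11.2). D4 was lower than D2, with a log2 ratio of -0.50 (95% interval -0.57 to -0.44), but D8 was higher than D4, with 0.42 (95% interval 0.36 to 0.49), a course that none of the other genes shared beyond counting error. At D8 it remained 9.71-fold above D0 (95% interval 8.88 to 10.6), close to its D2 level with a log2 ratio of -0.08 (95% interval -0.14 to -0.02). The sign of this last ratio turned to 0.04 when libraries were scaled by the median ratio over all genes.

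PER1, a repressor of the circadian clock (chromosome 12, 53361863 to 53376723, minus strand), was low throughout, at 0.586, 2.09, 1.56 and 0.795 FPKM at D0, D2, D4 and D8. It reached FPKM 1 at D2 and D4 only, and so was the 1 gene of the 10 that did not pass the filter given further on. The D2 library held 702 reads of it, 3.56-fold above D0 (95% interval 3.09 to 4.12). Its level at D8 was 1.36-fold that of D0 (95% interval 1.14 to 1.61), the nearest return to the starting level among the 8 genes that had been at least 2-fold higher at D2. The related clock gene CRY2 was at 1.10, 2.61, 1.72 and 0.619 FPKM at D0, D2, D4 and D8, with a log2 ratio of 1.24 in D2 vs D0. PER2 was highest at D0, at 0.0991 FPKM, with a log2 ratio of -0.86 in D2 vs D0. Both were picked for mention after their values were seen.

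Among SGK1, GLUL and DUSP1, the first 2 were several-fold higher at D2 than at D0, and the third was not. SGK1 (chromosome 1, 29625786 to 29753619, plus strand) encodes a kinase that controls ion channels and transporters. It was at 9.64, 57.2, 47.5 and 26.0 FPKM at D0, D2, D4 and D8. The D2 library was 5.93-fold above D0 (95% interval 5.70 to 6.18), after which each library was lower than the one before it, with log2 ratios of -0.27 (95% interval -0.30 to -0.23) and -0.87 (95% interval -0.91 to -0.82). At D8 it was 2.70-fold above D0 (95% interval 2.58 to 2.82).

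GLUL (chromosome 9, 123751551 to 123762575, minus strand) encodes glutamine synthetase, which makes glutamine from glutamate and ammonia and is a classic glucocorticoid-induced enzyme of muscle and fat. It was the most abundant of the 10 genes at D2, D4 and D8, with 35.5, 288, 412 and 127 FPKM over the 4 stages in order. These values correspond to 9079, 53794, 103935 and 23278 reads. From D0 to D2 the difference was 8.12-fold (95% interval 7.94 to 8.31), and from D0 to D4 it was 11.6-fold (95% interval 11.4 to 11.9). The step from D4 to D8 was the largest downward step of any of the 10 genes, with a log2 ratio of -1.70 (95% interval -1.72 to -1.68). The opposite-strand gene LOC110255568, which overlaps its start, had no more than 18 reads in any library.

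DUSP1 (chromosome 16, 51457924 to 51461095, plus strand), a phosphatase that switches off MAP kinases, had a course of its own. At D0, D2, D4 and D8 it was at 109, 99.3, 60.8 and 62.3 FPKM, so that it was the 1 gene highest before induction. In D2 vs D0 its log2 ratio was -0.13 (95% interval -0.17 to -0.10). The larger step came from D2 to D4, with a log2 ratio of -0.71 (95% interval -0.75 to -0.67), and the D8 and D4 libraries did not differ beyond counting error, at 0.03 (95% interval -0.01 to 0.08).

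ZBTB16 and the lncRNA LOC106504875 lie head to head on chromosome 9, and in the D2 library both were far above D0. ZBTB16, also known as PLZF, is a zinc finger transcription factor and a known target of the glucocorticoid receptor. It runs from 41639536 to 41839254 on the plus strand, and LOC106504875 from 41631006 to 41639471 on the minus strand, which leaves 64 bases between their starts in Sscrofa11.1. Transcripts that start so close to each other and run apart are called divergent.

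ZBTB16 was at 0.199, 4.60, 6.86 and 2.59 FPKM at D0, D2, D4 and D8, from 121, 2043, 4120 and 1133 reads. Its D2 level was 23.1-fold that of D0 (95% interval 19.3 to 28.0), and its D4 level 34.5-fold (95% interval 28.8 to 41.7). Among the 9621 mRNAs and lncRNAs that passed the filter, it ranked 18 from the top in D2 vs D0. From D4 to D8 the log2 ratio was -1.40 (95% interval -1.50 to -1.31), which left ZBTB16 at 13.0-fold its D0 level (95% interval 10.8 to 15.9).

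LOC106504875 was close to absent before induction, with 3 reads or 0.00963 FPKM at D0, and was at 1.32, 1.61 and 1.09 FPKM at D2, D4 and D8, from 299, 494 and 243 reads. Because of the 3 reads, the ratio of D2 to D0 is known only roughly, at 137-fold with a 95% interval of 46.3 to 666. With 0.01 added to both values the log2 ratio was 6.08, which ranked 4 from the top. The lncRNA was lower than ZBTB16 in every library, and its FPKM as a share of that of ZBTB16 was 4.84% before induction (95% interval 0.985 to 14.5), 28.6% at D2 (95% interval 25.2 to 32.3), 23.4% at D4 (95% interval 21.3 to 25.7) and 41.9% in the last library (95% interval 36.3 to 48.1). The share was lowest at D0 and highest at D8, where ZBTB16 was further below its D4 level than the lncRNA, whose own D8 vs D4 log2 ratio was -0.57 (95% interval -0.79 to -0.34).

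No other linear transcript within 50 kb of the pair reached FPKM 1. The lncRNAs LOC110255433, LOC102168180, LOC106504879 and LOC110255434, of which the last 2 lie inside ZBTB16 on its strand, were at no more than 0.304 FPKM. The next protein-coding gene, NNMT, was above 0 at D8 only, at 0.0232 FPKM. Circular RNAs (circRNAs, joined by back-splicing and measured by reads over the junction) were the other products of the locus. There were 5 of them inside ZBTB16 on its strand. All 5 were listed at 0 at D0, as were 54.3% of the 8623 circRNAs of the series, and together they had 25, 32 and 28 junction reads at D2, D4 and D8.

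The most abundant of these, ssc_circ_0004735 (chromosome 9, 41643139 to 41644483), had 10, 16 and 21 junction reads at D2, D4 and D8. That corresponds to 72.7, 94.99 and 176 SRPBM (junction reads scaled by the mapped reads of the library), highest at D8 where the linear gene was lower than at D2. Of the 292 circRNAs listed at 0 at D0 and above 0 at D2, D4 and D8, 46 were higher at each next stage, as this one was. Those 46 were 0.533% of all circRNAs, most of which were listed at 0 in some library. The circRNA ssc_circ_0004739 (41738255 to 41768627) went the other way, with 10, 6 and 0 junction reads, ssc_circ_0004738 (41738255 to 41745104) had 5, 7 and 0, and ssc_circ_0004737 (41643139 to 41768627) appeared at D8 only, with 7. With so few reads the differences between stages of a single circRNA are weakly determined, and as no circRNA was listed with fewer than 2 reads other than 0, a listed 0 may stand for 1 read.

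Outside ZBTB16, circRNAs were listed for FKBP5 and GLUL. The 5 of FKBP5 summed to 4, 19 and 7 junction reads at D2, D4 and D8 and to 0 at D0. The largest were ssc_circ_0003707, with 12 at D4, and ssc_circ_0003709, with 5 at D4. The single circRNA of GLUL had 4 junction reads at D8, against a linear level that was highest at D4.

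**Figure D2:**
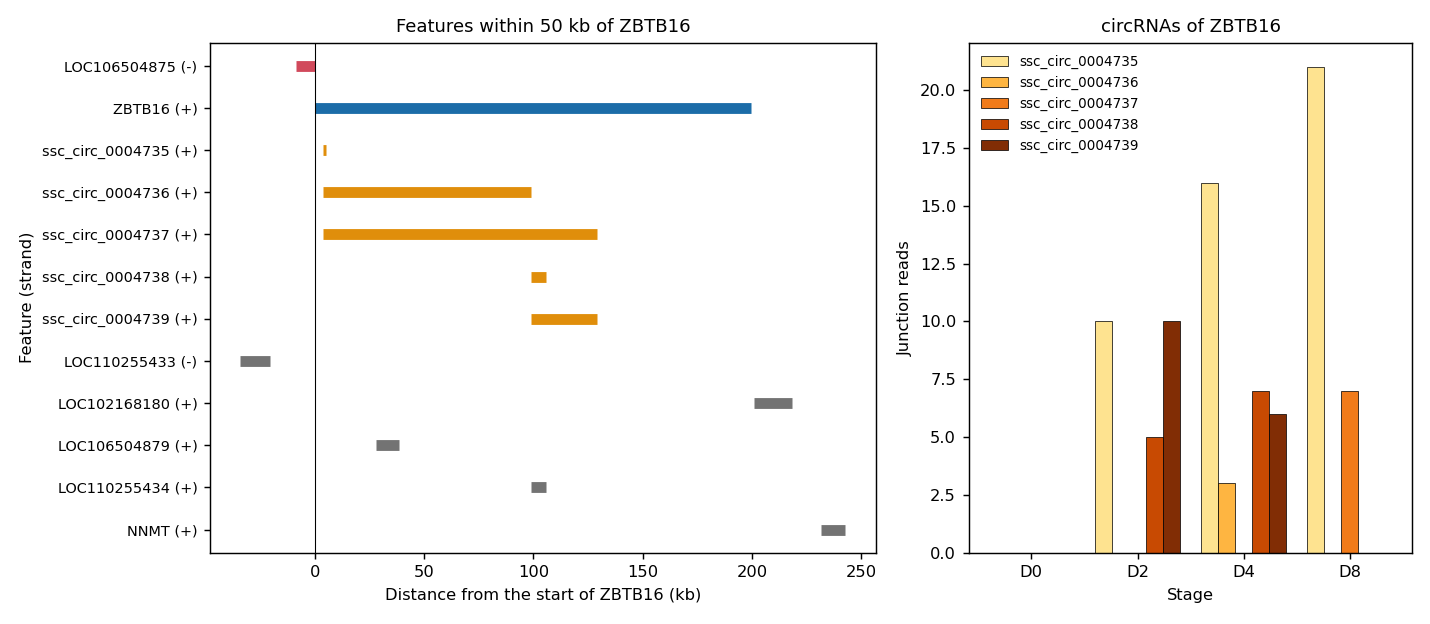
Left, position of the features within 50 kb of ZBTB16 as distance in kb from its start, with ZBTB16 in blue, LOC106504875 in red, circRNAs in orange and other genes in grey. Right, bars give the junction reads of the 5 circRNAs of ZBTB16 in the library of each stage: none at D0, and ssc_circ_0004735 with 10, 16 and 21 at D2, D4 and D8.

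The genes were then read against the whole transcriptome, with the study's filter for reliable expression, FPKM that reached 1 in 3 or more of the 4 libraries. A 2-fold difference was read on log2(FPKM + 0.01), which understates the ratio of low genes. The added 0.01 was chosen for this comparison, and no condition on a false discovery rate was set. The filter left 9621 mRNAs and lncRNAs, and 9 of the 10 genes. In D2 vs D0, 7 of the 9 were at least 2-fold higher, against 7.00% of all features, and none was at least 2-fold lower, against 10.2%. The 2 that did not reach 2-fold were NR3C1 and DUSP1. ZBTB16 and LOC106504875 could pass only by being high after D0, and 5 of the other 7 genes were at least 2-fold higher, against 5.28% of the 9376 features with FPKM of at least 1 at D0. The median log2 ratio of the 9 was 3.02, and that of all features -0.02. With PER1, which was also higher, the median of the 10 was 2.79.

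In D4 vs D2, the 2 days after dexamethasone and IBMX had been taken away, none of the 9 genes was 2-fold higher or lower, where 4.31% of all features were 2-fold higher and 1.14% lower. Of all 10 genes, 5 were higher at D4 than at D2 and 5 were lower. FKBP5, ZBTB16, LOC106504875, GLUL and NR3C1 were the 5 that were highest at D4. HSD11B1, TSC22D3, PER1 and SGK1 were highest at D2. The sign for NR3C1 turned from 0.21 to -0.06 when libraries were scaled by RPLP0, PPIA and HPRT1, a scaling that moved every D4 vs D2 ratio by -0.27.

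In D8 vs D4, 3 of the 9 were at least 2-fold lower, namely GLUL, ZBTB16 and FKBP5, against 10.3% of all features, and none was 2-fold higher, against 4.53%. FKBP5 lay at the edge of the call and left it under 4 other settings. Features that had been at least 2-fold higher at D2 than at D0 were often lower at this step: 316 of the 673, or 47.0%, were at least 2-fold lower in D8 vs D4, beside 3 of 7 among the genes described here. The median log2 ratio of the 9 genes was -0.62, and that of all features -0.21.

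In D4 vs D0, 7 of the 9 were at least 2-fold higher, against 10.7% of all features, and in D8 vs D0 the number was again 7, against 3.73%. Apart from ZBTB16 and LOC106504875, which could pass only by being high after D0, 5 of 7 were so in each comparison. Of the features with FPKM of at least 1 at D0, 8.86% and 2.38% were. None of the 9 was 2-fold lower, where 9.09% and 4.18% of all features were. These comparisons share the D0 library with D2 vs D0. The median log2 ratios of the 9, with ZBTB16 and LOC106504875 included, were 2.85 and 1.84, beside 0.06 and -0.18 for all features. In D8 vs D2, a comparison added after the data had been seen, all 10 genes were lower at D8 (TSC22D3 not under the median-ratio scaling named above), but only SGK1 and GLUL of the 9 by 2-fold or more, against 5.25% of all features lower and 7.08% higher, with log2 ratios of -1.14 (95% interval -1.18 to -1.09) and -1.19 (95% interval -1.21 to -1.16). No gene of the 10 was highest at D8.

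**Figure D3:**
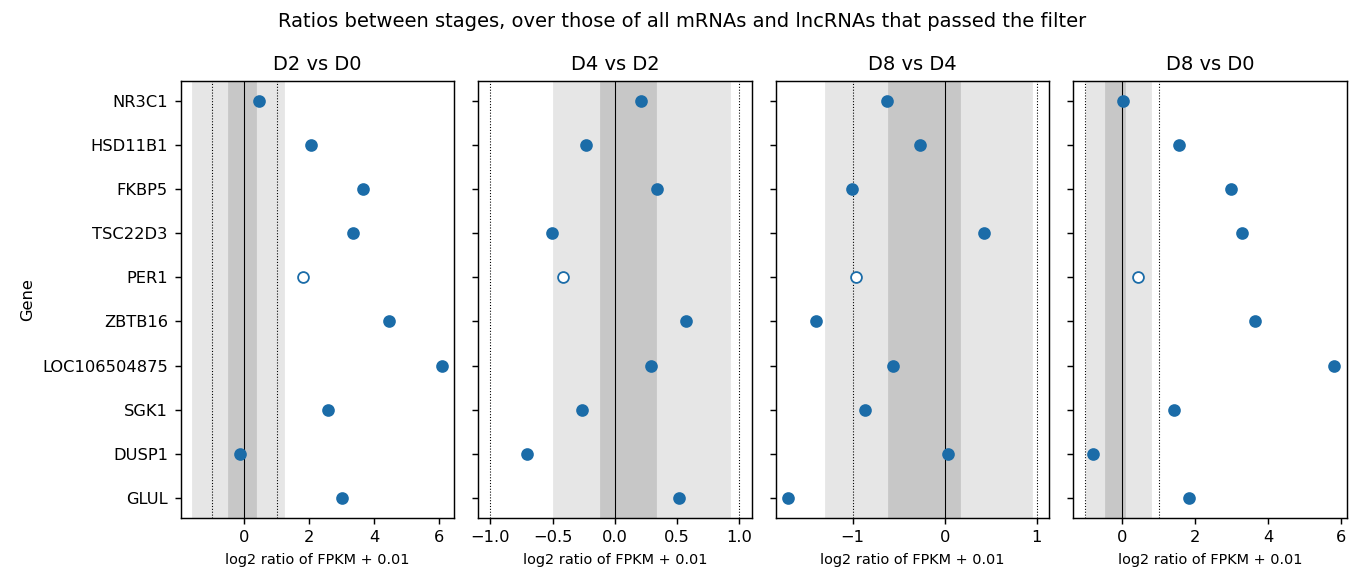
Each point is the log2 ratio of FPKM + 0.01 of 1 gene between 2 libraries, open for PER1, which did not pass the filter. Dark and light bands hold the middle 50% and 90% of the 9621 mRNAs and lncRNAs, and dotted lines mark 2-fold. In D2 vs D0 all but NR3C1 and DUSP1 lie right of the light band, which ends at 1.21.

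Other genes of the pathway were read from 5 lists. Of 9 genes from the list of receptor complex and chaperones that passed the filter, among them the HSP90 genes, FKBP4, BAG1 and TRAP1, none was 2-fold different in any comparison. Of all features, between 5.46% and 19.8% were, depending on the comparison. The median log2 ratio of the 9 in D2 vs D0 was -0.14. Unlike FKBP5, its close relative FKBP4 was at 74.2, 93.2, 109 and 74.5 FPKM at D0, D2, D4 and D8 and was named after its values were seen. The mineralocorticoid receptor NR3C2, which also binds cortisol, did not pass the filter, with at most 0.0957 FPKM.

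Coregulators of the receptor, such as NCOA and NCOR proteins, did not reach 2-fold in any of the 10 genes that passed, beside the same shares of all features. Their median log2 ratio in D2 vs D0 was -0.07. In D8 vs D4 all 10 were lower, with a median of -0.69 against -0.21 for all features. The smallest of these ratios, that of NCOA3 at -0.09, lay above the median of all features, and scaling by the median ratio, which adds 0.21, turns its sign. Of the genes for glucocorticoid metabolism and transport, 3 of the 5 listed passed and none was 2-fold different in D2 vs D0, where 17.2% of all features were. ABCB1, an efflux pump that exports glucocorticoids, was at 10.02, 16.5, 5.95 and 17.4 FPKM at D0, D2, D4 and D8, lower in D4 vs D2 and higher in D8 vs D4 by log2 ratios of -1.47 and 1.55. HSD11B2, which inactivates cortisol and so opposes HSD11B1, was listed at 0 at D0 and at no more than 0.171 FPKM elsewhere, and was picked for mention after its values were seen.

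Of 25 other genes known to be induced by glucocorticoids that passed the filter, 16 were at least 2-fold higher in D2 vs D0 and 2 were at least 2-fold lower, with a median log2 ratio of 1.16. MT1A, PDK4, KLF15 and CD163 were under FPKM 1 at D0 and could pass only by being high later. Of the other 21, 12 were at least 2-fold higher and 2 lower, against 5.28% and 10.48% of the features with FPKM of at least 1 at D0. MT1A, a metallothionein, was at 0.459, 11.3, 6.01 and 2.56 FPKM at D0, D2, D4 and D8, a log2 ratio of 4.60 in D2 vs D0, although reads of close paralogs may be shared. PDK4, which turns cells from glucose to fatty acid oxidation, was at 0.153, 1.62, 1.97 and 1.91 FPKM, and thus close to its D4 level at D8. KLF15, a transcription factor of metabolism and adipogenesis, was at 0.657, 5.20, 5.39 and 1.20 FPKM, and its D8 vs D4 log2 ratio was -2.15. NEDD9, a scaffold protein of focal adhesions, went against the list at 6.78, 0.909, 1.80 and 5.13 FPKM. The other gene that was at least 2-fold lower at D2, named after its values were seen, was ERRFI1, an inhibitor of EGF receptor signalling, at 14.6, 6.56, 10.4 and 6.64 FPKM.

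None of the 25 was 2-fold different in D4 vs D2, where 5.46% of all features were. In D8 vs D4, 12 were at least 2-fold lower, against 10.3% of all features, and 2 were at least 2-fold higher, against 4.53%. Among the 16 that had been at least 2-fold higher at D2, 10 were in that lower group, beside the 47.0% of all features that had been so. In D8 vs D0, 8 of the 25 were at least 2-fold higher, against 3.73% of all features, and 2 were at least 2-fold lower, against 4.18%. The median log2 ratio was 0.23, beside -0.18 for all features. MT1A, PDK4, KLF15 and CD163, which could pass only by being high after D0, are among the 25.

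Only 5 of the 11 listed genes that glucocorticoids are known to repress passed the filter. In D2 vs D0, 2 were at least 2-fold lower, against 10.2% of all features, and 1 at least 2-fold higher, against 7.00%. The median log2 ratio was -0.74. The filter drops genes that were above FPKM 1 at D0 only. Among the 9 listed genes with FPKM of at least 1 in any library, a wider set added after the data had been seen, 6 were at least 2-fold lower, against 13.5% of all such features, and 1 was higher, against 9.43%, with a median of -2.54. The 4 genes so added, named after their values were seen, were CXCL8, PTGS2, LIF and MMP13, with log2 ratios of -3.59, -2.07, -2.86 and -2.54. Of these, MMP13 was under FPKM 1 at D0, at 0.693. CXCL8, PTGS2 and LIF reached FPKM 1 at D0 only, and so entered the wider set only by being high there. For them a lower value at D2 was fixed by the filter, and the count and median of this set include them. CCL2, a monocyte chemoattractant, was at 54.7, 6.50, 6.65 and 21.4 FPKM at D0, D2, D4 and D8. MMP1, an interstitial collagenase, was at 64.2, 3.998, 6.38 and 19.8 FPKM. Both were lowest at D2 and between their D2 and D0 levels at D8. ICAM1, an adhesion molecule named after its values were seen, was at 10.2, 6.06, 5.47 and 8.26 FPKM, lower than D0 in every later library, with a log2 ratio of -0.74 in D2 vs D0. IL6 and VCAM1 took other courses. IL6, a cytokine, was at 5.97, 8.71, 2.35 and 2.35 FPKM, with its step at D4 vs D2, and the adhesion molecule VCAM1 was at 8.28, 17.97, 44.2 and 28.5 FPKM, above D0 in every later library.

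**Figure D4:**
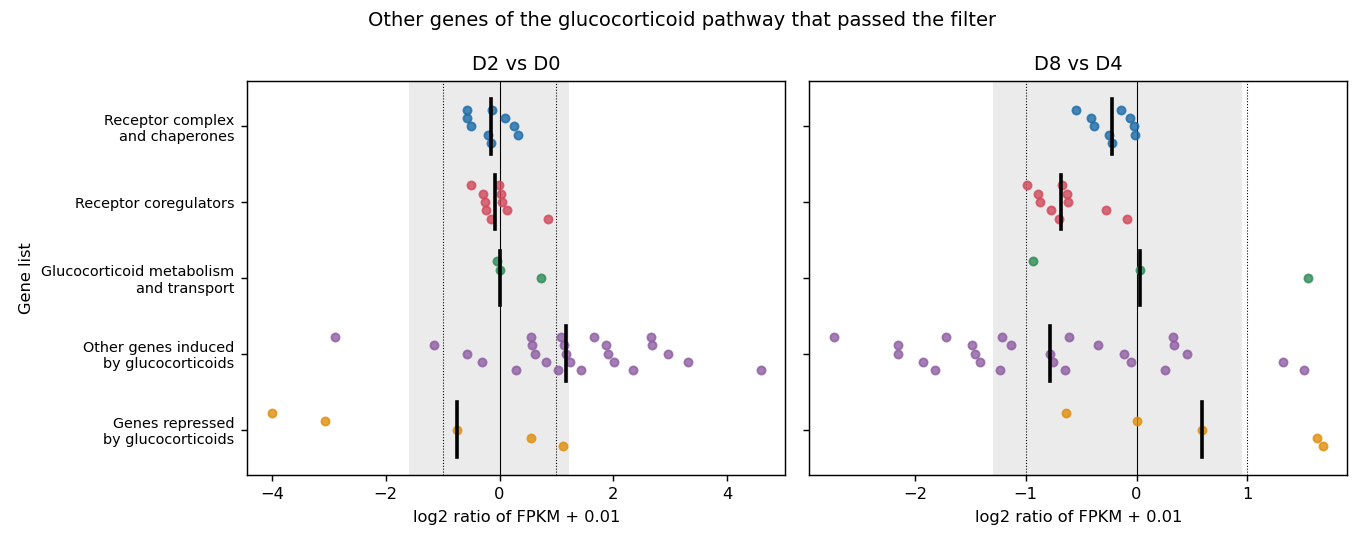
Each point is a gene of 5 lists that passed the filter, by its log2 ratio of FPKM + 0.01 in D2 vs D0 and in D8 vs D4, with a black bar at the median of the list, a grey band over the middle 90% of all features and dotted lines at 2-fold. In D2 vs D0 the induced list has its median at 1.16 and the chaperones at -0.14.

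Likeness of course was measured as the largest difference in log2 ratio to D0 over D2, D4 and D8, among the 9620 other features that passed the filter and over 4 libraries, all sharing D0. Nearest to FKBP5 were IL1R2, a decoy receptor for interleukin 1, at 0.223, 3.95, 2.80 and 1.81 FPKM with a largest difference of 0.44, and SNTB1, a syntrophin, with 0.44. Nearest to ZBTB16 were FGF10, a growth factor, at 0.43, SFRP5, a secreted WNT antagonist, at 0.52, and CISH, a suppressor of cytokine signalling, at 0.57. FKBP5 ranked 13 in that order, with a largest difference of 1.06.

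Nothing was as near to LOC106504875, for which 3 reads at D0 set the scale. SULT2A1, a sulfotransferase of steroids, was nearest at 0.999 and stood at 0.0524, 4.52, 6.69 and 1.73 FPKM at D0, D2, D4 and D8. PI15, a secreted protease inhibitor, followed at 1.13 and S100A8, a calcium-binding protein of inflammation, at 1.33. ZBTB16 ranked 15 for the lncRNA and the lncRNA ranked 71 for ZBTB16, with a largest difference of 2.16 on the log2 scale.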

How the data were processed

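The authors made rRNA-depleted, strand-specific libraries, aligned reads to Sscrofa11.1 with HISAT2 2.0.5 and called circRNAs with BWA and CIRI at a minimum of 2 junction reads. Per the labels and methods, FPKM was deposited for mRNAs, lncRNAs and other genes. The deposited SRPBM of circRNAs is a signal of junction reads scaled by mapped reads. The counting tool is not given in the sources used here.

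Library totals were computed from values of short single-exon genes, of which 93.4% to 94.9% came out as whole reads, within 0.02 of a read. Each gene's length was the smallest that gave whole reads in every library where the gene was above 0. Read numbers are therefore the smallest that fit, and for genes above 0 in few libraries the true number may be larger. Intervals are exact Poisson for levels and exact binomial for ratios, at 95%. With 1 pooled library a stage, no test was run. The ratio was log2(FPKM + 0.01), called at 2-fold among features with FPKM of at least 1 in at least 3 of 4 libraries. The procedure was tested on simulated data. Python 3.11.15, numpy 2.4.6, pandas 2.3.3, scipy 1.17.1 and matplotlib 3.10.9 were used. Positions equal those of RefSeq on Sscrofa11.1.

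The 10 genes and all lists were chosen with earlier results of these data known. Other genes were named by rule: in each list up to 4 that passed the filter, by size of D2 vs D0 and 2-fold in any of the 5 comparisons, the 3 features nearest in course to FKBP5, ZBTB16 and LOC106504875, and neighbours that overlap a gene or lie within 50 kb of ZBTB16 with FPKM of at least 1 or 5 junction reads. Of these, 1 is not reported here. Lists of markers held 32 genes, and the preadipocyte marker DLK1 and the skeletal muscle markers MYOD1 and MYF5 were not analysed here. Alternatives were other pseudocounts, no filter, a ratio of 1.5 and other scalings. The comparison D8 vs D2, the ratio without pseudocount, the filter of FPKM of at least 1 in any library and the survey of divergent pairs were chosen after seeing the data.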

Additional observations from a re-analysis of the deposited data

How the results depend on the processing

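Of the counts of genes past 2-fold, those for D2 vs D0, D4 vs D0 and D8 vs D0 kept within 1.5 times under every setting run. With a ratio of at least 1.5 in place of 2, the number went from 0 to 1 in D4 vs D2, from 3 to 5 in D8 vs D4 and from 2 to 5 in D8 vs D2, the last of which is the comparison added after seeing the data. Of all features, 15.3%, 36.3% and 30.6% differed by that ratio in these comparisons, beside 5.46%, 14.9% and 12.3% at 2-fold. Both scalings named next moved single log2 ratios across 0: scaling by RPLP0, PPIA and HPRT1 moved NR3C1 from 0.21 to -0.06 in D4 vs D2 and from 0.03 to -0.05 in D8 vs D0, and scaling by the median ratio moved TSC22D3 from -0.08 to 0.04 in D8 vs D2. The first scaling shifted all ratios by -0.27 in D4 vs D2 and by -0.17 in both D4 vs D0 and D8 vs D2, and the second by 0.21 in D8 vs D4, 0.16 in D8 vs D0 and 0.12 in D8 vs D2. FKBP5 in D8 vs D4 left the 2-fold call at -0.98 with a pseudocount of 1, -0.91 and -0.79 under those 2 scalings, and -0.94 with LOC102723301 left out of the library totals. DUSP1 entered it in D4 vs D0 at -1.01 when scaled by RPLP0, PPIA and HPRT1. A pseudocount of 1 took HSD11B1 in D8 vs D0 to 0.98 and PER1 in D2 vs D0, D4 vs D0 and D8 vs D2 to 0.96, 0.69 and -0.78. It also took LOC106504875 in D2 vs D0 from 6.08 to 1.20. Of 60 log2 ratios per setting, a pseudocount of 0.1 and no pseudocount, the latter added after seeing the data, moved none across 2-fold. A constant added to both values cannot turn the sign of a ratio, and leaving out the filter changes no ratio. With FPKM of at least 1 in any library as the filter, added after seeing the data, the genes at least 2-fold different in D2 vs D0 went from 3 to 7 in the repressed list and from 0 to 1 in that of metabolism and transport, and from 18 to 19 in the induced list. The share of all features went from 17.2% to 23.0%. Of the genes so added, CXCL8, PTGS2 and LIF reached FPKM 1 at D0 only, and AKR1C1 at D2 only. That fixed the direction of their difference in D2 vs D0. Without any filter PER1 was counted too, which gave 8 genes in D2 vs D0 and in D4 vs D0, where 35.6% and 38.4% of all mRNAs and lncRNAs were 2-fold different. No paired analysis was possible because each stage has 1 pooled library, and no replicate could be left out for the same reason. Depth limits the D0 value of LOC106504875 and all circRNA values.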

Other observations

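Divergent gene pairs with both genes differing in the same direction were counted in D2 vs D0. Within 1000 bases of each other, 1610 pairs on opposite strands that run apart were found among the listed genes, and in 574 both genes passed the filter. Both were at least 2-fold higher in 4 of the 574, both at least 2-fold lower in 9, and in 2 they went opposite ways. Of single features that passed the filter, 7.00% were at least 2-fold higher and 10.2% at least 2-fold lower. Whether both genes of a pair differed together more often than these shares would give was not tested. Among 101 pairs of 1 mRNA and 1 lncRNA, at least 1 gene was 2-fold higher in 28 and both were in 2, ZBTB16 with LOC106504875 and NT5DC2 with SMIM4. This survey was chosen after the ZBTB16 locus had been seen, and pairs like it, with 1 gene low at D0, pass the filter only when that gene is higher later.

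Some genes of the lists were noted after their values were seen. CD163, a scavenger receptor known from glucocorticoid-treated macrophages, was at 0.270, 1.42, 1.01 and 1.38 FPKM at D0, D2, D4 and D8, while the 4 macrophage and leukocyte markers summed to between 0.397 and 1.27 FPKM. Of those, PTPRC and CSF1R were at no more than 0.0712 and 0.109 FPKM, CD68 was at 0.0108, 0.223, 0.208 and 0.151, and AIF1 was at 0.221, 0.273, 0.225 and 1.05. CD68 and AIF1 were thus higher in some of the libraries where CD163 was, and the part of such cells in the CD163 values was not tested. ANGPTL4, an inhibitor of lipoprotein lipase, had the lowest D8 vs D4 log2 ratio of the induced list at -2.73, with 19.2, 72.2, 57.1 and 8.59 FPKM at D0, D2, D4 and D8. AKR1C1, an enzyme that inactivates steroids, was at 0.358, 3.24, 0.229 and 0.0918 FPKM, above 1 at D2 only. CXCL8, a neutrophil chemoattractant of the repressed list that did not pass the filter, was at 5.41, 0.440, 0.109 and 0.733 FPKM. ANXA1, a mediator of the anti-inflammatory action of glucocorticoids, was at 943, 757, 388 and 968 FPKM, lowest at D4.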
